A study of Mus musculus with 48 samples.

Results

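The J-domain co-chaperones are the proteins encoded by the mouse Dnaja, Dnajb and Dnajc genes. Members were chosen by name alone, as every protein-coding gene of the count table whose symbol is Dnaja, Dnajb or Dnajc followed by a number, and 45 of the 21780 protein-coding genes met that rule (4 Dnaja, 13 Dnajb and 28 Dnajc). A J-domain protein brings an unfolded client to a chaperone of the HSP70 family and triggers the ATP hydrolysis with which HSP70 clamps onto that client. Class A members keep the J-domain, a glycine-rich stretch and a zinc-binding region of their bacterial ancestor, class B members lack the zinc-binding region, and class C members share only the J-domain, which the cell places on ribosomes, endoplasmic reticulum, mitochondria, spliceosomes or vesicles. Several cytosolic members are classical targets of heat shock factor 1, and several members of the endoplasmic reticulum are targets of the unfolded protein response.

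The study sequenced the 3′ ends of mRNA from mouse macrophages, and its 48 libraries form 16 groups of 3. Cells received AP-3-84, a compound named but not described in the labels, at 10 µM for 4 h, or an equal amount of its vehicle, DMSO. The study compares the compound with the vehicle in 8 macrophage populations, and the strain field gives C57BL/6 for all of them. Ascites macrophages were F4/80-positive cells taken by magnetic beads from the peritoneum of mice that had carried the ovarian tumour line ID8 for 45 days, and their genotype is given as B6(Cg)-Tyrc-2J/J. Thioglycollate macrophages were F4/80-positive cells taken in the same way from wild-type C57BL/6 mice 4 days after 1 ml of 3% thioglycollate. Bone marrow of wild-type (WT) or p53 knockout (KO) mice gave macrophages after 6 days of M-CSF at 10 ng/mL. They were used unpolarised (M0), after 24 h with LPS at 100 ng/mL and IFN-γ at 50 ng/mL (M1), or after 24 h with 10 ng/mL of IL-4 and of IL-13 (M2). The labels do not say whether the 3 libraries of a group came from separate animals or cultures, so p-values measure the spread between these libraries, which may be technical. Ascites and thioglycollate cells differ in labelled genotype as well as in stimulus, and the contributions of the 2 cannot be told apart.

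Total counts were 15532373 to 19417581 in the 12 peritoneal libraries and 3081707 to 4645148 in the 36 bone marrow-derived libraries, and the family took 0.248% to 0.297% and 0.184% to 0.282% of them. All 7 macrophage markers (Adgre1, Cd68, Csf1r, Lyz2, Itgam, Mertk and Fcgr1) were detected in every library. The level of Adgre1, which encodes F4/80, was 193 to 254 CPM (counts scaled to library size) in peritoneal libraries. It spanned 338 to 2750 CPM over those from bone marrow. Lyz2 had the highest median of the 7, at 26200 CPM in peritoneal and 23800 CPM in bone marrow-derived libraries. The sums of macrophage markers given below therefore weigh Lyz2 most and are no measure of macrophage content. Of the T cell genes Cd3e stayed at or below 0.602 CPM in every library, but Lck spanned 0.441 to 3.01 CPM over peritoneal ones. Of the 5 neutrophil markers Ly6g stayed at or below 1.26 CPM, but S100a8 spanned 101 to 2310 CPM and S100a9 78.4 to 1420 CPM over libraries from bone marrow, and Csf3r spanned 61.4 to 89.9 CPM over peritoneal ones. Trp53, the gene named by the KO label, spanned 4.79 to 13.2 CPM over 18 WT libraries and 2.7 to 9.11 CPM over 18 KO libraries. The deleted stretch is not named in the labels, and reads that end outside it cannot check the genotype. The genotype field names all bone marrow-derived libraries wild-type, while titles and descriptions separate WT from KO, so WT and KO are used here as the names that titles give. Replicates correlated least (Pearson's r 0.907 over genes) between replicates 2 and 3 of KO M0 with the compound, then (0.917) between replicates 1 and 3 of WT M2 with vehicle.

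Levels are given in CPM after TMM scaling, and since a 3′ library yields reads from transcript ends only, CPM can be compared between genes without a correction for length. Filtering on low counts left 38 members to be tested in the peritoneal libraries and 36 in the bone marrow-derived ones. Dnajb8 and Dnajc5g had 0 counts in all 48 libraries, and Dnajb3, Dnajb7, Dnajc5b, Dnajc6 and Dnajc22 were too low for a test in either origin. Dnaja4 and Dnajb13 were tested in peritoneal libraries only. The most abundant member on average over the peritoneal libraries was Dnajb14, an endoplasmic reticulum membrane protein, at 261 to 487 CPM. That rank comes from the thioglycollate libraries (415 to 487 CPM), since in ascites libraries Dnajb14 stood at 261 to 333 CPM and Dnajb6 at 316 to 400 CPM. Dnajb6, a suppressor of protein aggregation, was the most abundant on average in bone marrow-derived libraries, at 271 to 488 CPM. Reads of Dnajb6 are uncertain, since 19.1% of the 30-base stretches of its transcripts also occur in other annotated genes, and Dnajb14 overlaps Gm15460 and Gm43088 on its own strand. The shared part is 10.2% for Dnajc2 and 10.9% for Dnajc8. At their 3′ ends Dnajb11, Dnajc1, Dnajc28 and Dnajc30 overlap genes on the other strand (Gm30505, Mllt10, Gm15964 and Bud23 in that order). A gene is called at an edgeR quasi-likelihood adjusted p under 0.05 (Benjamini-Hochberg over all genes tested, two-sided), and "rose", "fell", "higher" and "lower" of a member refer to such calls. Where groups are said not to overlap, the statement describes the members named. The share of such genes over all genes was not counted. Called members were picked by a test on the same libraries, so a lack of overlap among them adds no support.

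In ascites macrophages 5 helpers of cytosolic HSP70 rose with AP-3-84, by 1.23 to 4.76 times, and no other member was called. Of 38 members tested, 5 were higher (13.2%) and 0 were lower, where 1.69% of all 16955 genes were called higher and 0.100% lower. DESeq2 also called 5 higher and 0 lower. At an unadjusted p under 0.05 edgeR had 9 of 38 members, and 1804 of all 16955 genes. All 3 class A members of the cytosol and nucleus (Dnaja1, Dnaja2 and Dnaja4) were higher, and so were Dnajb1 and Dnajb4, which are 2 of the 6 other cytosolic members tested (5 of class B, and Dnajc7). The numbers were 0 of 10 in the endoplasmic reticulum, 0 of 7 in mitochondria, 0 of 6 among ribosomal and nuclear members, 0 of 3 tested vesicle members and 0 of 3 tested others. The median log2 fold change of the members was 0.06 and that of all genes -0.00. In bulk RNA fewer cells of a type and less RNA per cell cannot be told apart, and the same holds for every value that follows.

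Dnaja1 (ENSMUSG00000028410, chromosome 4, 40722150 to 40737149, plus strand in GRCm38), which encodes the main class A partner of cytosolic HSP70, stood at 213, 207 and 182 CPM in the ascites vehicle libraries and at 390, 402 and 350 CPM with the compound. The treated libraries all lay above the vehicle libraries, and the change was a log2 fold change of 0.92 (SE 0.0764, adjusted p = 1.55e-06 by edgeR). Dnajb1 (ENSMUSG00000005483, chromosome 8, 83608193 to 83612653, plus strand), the stress-inducible HSP40 in the strict sense, stood at 40.1, 44.5 and 42.2 CPM with vehicle and at 99.8, 79.4 and 95.7 CPM with the compound. Again the groups did not overlap, with a log2 fold change of 1.12 (SE 0.133, adjusted p = 9.02e-05 by edgeR). Dnajb4 (ENSMUSG00000028035, chromosome 3, 152178511 to 152210302, minus strand), a close relative of Dnajb1, went from 19.5, 23.1 and 19.9 CPM to 49.8, 39.8 and 43.9 CPM. Its lowest treated library was well above its highest vehicle library, and the log2 fold change was 1.09 (SE 0.120, adjusted p = 2.22e-05 by edgeR).

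Dnaja4 (ENSMUSG00000032285, chromosome 9, 54698873 to 54716315, plus strand), a class A member that is scarce in these cells, stood at 0.479, 1.08 and 0.705 CPM with vehicle, which are 43 counts in all 3 libraries, and at 4.03, 3.83 and 3.12 CPM with the compound, which are 179 counts. It had the widest fold of the 5, a log2 fold change of 2.25 (SE 0.404, adjusted p = 0.00383 by edgeR), from the lowest level. Reads of Dnaja4 can share ground with Wdr61 on the other strand at its 3′ end, and the use of strand in the counting is not given in the sources used here. Dnaja2 (ENSMUSG00000031701, chromosome 8, 85537633 to 85555344, minus strand), a constitutive class A partner of HSP70, moved from 164, 159 and 144 CPM to 205, 190 and 179 CPM, a log2 fold change of 0.30 (SE 0.0708, adjusted p = 0.0371 by edgeR). Its groups did not overlap, but the step was small. Dnaja1, Dnajb1, Dnajb4 and Dnaja4 kept their calls in all 11 alternatives tried, and Dnaja2 lost it in 8 of 11 (adjusted p from 0.0115 to 0.25). Of the transcripts of Dnaja1, 13.5% of 30-base stretches are shared with other genes, among them the pseudogenes Gm15542, Gm7816 and Gm6335. Like Dnaja4, Dnaja1 can share ground at its 3′ end with a gene on the other strand, Smu1.

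In thioglycollate macrophages Dnaja1, Dnaja2 and Dnajb4 rose with AP-3-84. Of 38 members tested 3 were higher (7.89%) and 0 lower, against 2.51% of all genes higher and 1.82% lower. DESeq2 likewise called 3 higher and 0 lower. At an unadjusted p under 0.05 edgeR had 10 of 38 members, and 2665 of all 16955 genes. Dnaja1 went from 145, 127 and 145 CPM to 221, 230 and 212 CPM (log2 fold change 0.67, SE 0.0767, adjusted p = 4.83e-05 by edgeR). Dnaja2 went from 152, 140 and 151 CPM to 180, 197 and 181 CPM (log2 fold change 0.33, SE 0.0710, adjusted p = 0.0115 by edgeR). Dnajb4 went from 27.3, 25.5 and 21.6 CPM to 30, 36.9 and 34.9 CPM (log2 fold change 0.45, SE 0.120, adjusted p = 0.0401 by edgeR). In each of these 3 genes every treated library lay above every vehicle library. Without replicate 2 of the thioglycollate vehicle only Dnaja1 was called, and without the filter on low counts 5 members were, the further ones being Dnajb1 and Dnajc8. Over all genes these fits called 465 of 17518 and 1072 of 31120, in place of 733 of 16955.

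Dnajb1 in thioglycollate macrophages stood at 30.1, 25.0 and 23.6 CPM with vehicle and at 33.6, 27.4 and 41.3 CPM with the compound. One treated library lay inside the vehicle range, and the log2 fold change of 0.38 (SE 0.137) was not called (adjusted p = 0.16 by edgeR, 0.0114 to 0.515 across alternatives). It passed the threshold without replicate 2 of the treated thioglycollate group and without the filter on low counts. Dnaja4 stood at 1.92, 1.94 and 1.84 CPM with vehicle and at 2.39, 1.00 and 1.27 CPM with the compound, with 2 treated libraries below and 1 above the vehicle libraries.

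**Figure D1:**
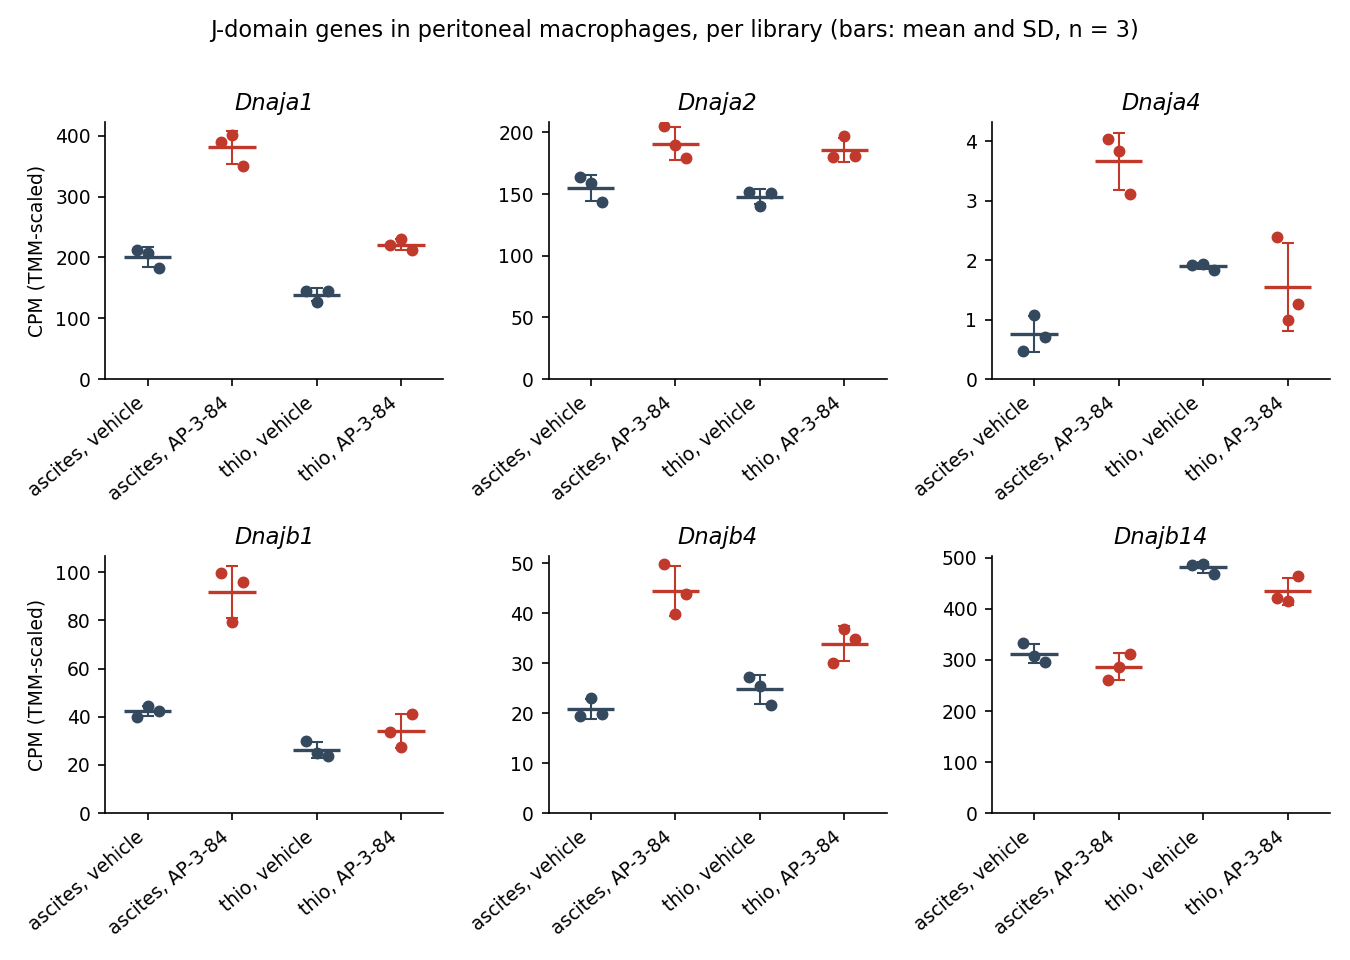
TMM-scaled CPM of 6 J-domain genes in each of the 12 peritoneal libraries, 1 panel per gene, with the vehicle in grey and AP-3-84 in red. Points are libraries and bars are the mean and SD of 3 libraries. In ascites macrophages the treated libraries of Dnaja1, Dnaja2, Dnaja4, Dnajb1 and Dnajb4 all lie above the vehicle libraries, while for Dnajb14 the vehicle libraries of the thioglycollate group (469 to 487 CPM) lie above those of the ascites group (296 to 333 CPM).

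Whether the response itself differed between the peritoneal populations was tested as a difference of differences. With edgeR 0 of 38 members passed, where 0.118% of all genes did. DESeq2 called 1 member (Dnaja4), and 55 of all 16955 genes. With edgeR 5 members had an unadjusted p under 0.05, as had 1295 of all genes. The response of Dnaja4 was larger in ascites by 2.54 on the log2 scale (SE 0.561, adjusted p = 0.126 by edgeR). That of Dnajb1 was larger by 0.73 (SE 0.190, adjusted p = 0.301 by edgeR), that of Dnajb4 by 0.64 (SE 0.169, adjusted p = 0.301 by edgeR) and that of Dnaja1 by 0.25 (SE 0.108, adjusted p = 0.603 by edgeR). Without the filter on low counts 4 members were called (Dnaja4, Dnajb1, Dnajb4 and Dnajc12). Over all genes 155 of 31120 were called in that fit, in place of 20 of 16955. A difference between the populations was therefore not called for any member in the test as designed, although the point estimates of the first 3 exceed 0.6.

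Partners of the family were called in the same cells. The list of partner genes holds 41 genes (HSP70 and HSP110 chaperones, exchange factors, HSP90, small heat shock proteins, chaperonins, heat shock factors and J-domain proteins of other names). In ascites macrophages 15 of 41 were higher and 0 lower, where 1.69% and 0.100% of all genes were. The median log2 fold change of the partners was 0.23 and that of all genes -0.00. In thioglycollate macrophages 13 were higher and 1 lower, where 2.51% and 1.82% of all genes were. The medians there were 0.14 and 0.03. Hspa1a, the stress-inducible HSP70, went from 2.58, 2.61 and 2.22 CPM to 760, 741 and 713 CPM in ascites macrophages. That is a log2 fold change of 8.22 (SE 0.195, adjusted p = 3.73e-10 by edgeR), beside 6.52 (SE 0.181, adjusted p = 2.17e-09 by edgeR) in thioglycollate macrophages, and reads of Hspa1a are uncertain because Hspa1b is a near-identical copy. Hspa8, the constitutive HSP70 that Dnaja1, Dnaja2 and Dnajb1 serve, had 0.70 (SE 0.0648, adjusted p = 5.09e-06 by edgeR) and 0.60 (SE 0.0647, adjusted p = 3.08e-05 by edgeR). Sec63, a J-domain protein of the endoplasmic reticulum translocon, was higher in thioglycollate macrophages and was not called in ascites macrophages. Summed macrophage markers stood at 23700 to 28400 CPM with the compound and at 28700 to 30500 CPM with vehicle in ascites, and at 27600 to 32700 and 34300 to 34700 CPM in thioglycollate libraries. Summed epithelial and tumour markers (Epcam, Krt7, Krt8, Krt18, Krt19 and Msln) stood at 185 to 201 CPM with the compound and 156 to 187 CPM with vehicle in ascites. The part of either list in these results was not tested.

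Promoter sequence was set beside the ascites response because heat shock factor 1 binds inverted repeats of GAA. RefSeq promoter windows (GRCm38.p6, 250 bases before to 50 after each annotated start) were found for 37 of 45 members. Both strands were searched for GAANNTTC and TTCNNGAA, which are 2 facing units each and read the same on either strand. A match was found in 7 of 37 members (18.9%), against 17% of all 27025 genes with a window, so the share is close to that of all genes. In Dnajb6 alone the motifs overlap to give 3 units in a row, which 0.603% of all windows hold. Of the 5 members that rose in ascites macrophages Dnaja1, Dnaja4 and Dnajb4 hold a match, and Dnajb1 and Dnaja2 hold none in these windows. The other members with a match are Dnajb6, Dnajc10, Dnajc27 and Dnajc5g. Of these Dnajb6, with its 3 units, Dnajc10 and Dnajc27 were tested in ascites macrophages and not called, and Dnajc5g had no counts. The 120 bases around the matches of the risen members, and the same stretch up to the start for Dnajb1, are shown 5′ to 3′ on the gene's strand with matches in capitals. They lie at chr4:40722288-40722407 (plus strand, Dnaja1), chr9:54699432-54699551 (plus strand, Dnaja4), chr3:152193796-152193915 (minus strand, Dnajb4, at an alternative start) and chr8:83608055-83608174 (plus strand, Dnajb1).
Dnaja1: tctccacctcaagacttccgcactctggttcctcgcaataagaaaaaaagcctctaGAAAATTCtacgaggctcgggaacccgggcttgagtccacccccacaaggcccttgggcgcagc
Dnaja4: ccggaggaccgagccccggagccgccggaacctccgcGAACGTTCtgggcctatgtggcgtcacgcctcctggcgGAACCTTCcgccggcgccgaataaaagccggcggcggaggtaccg
Dnajb4: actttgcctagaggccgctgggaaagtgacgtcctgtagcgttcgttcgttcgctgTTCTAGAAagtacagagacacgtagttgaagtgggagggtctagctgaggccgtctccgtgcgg
Dnajb1: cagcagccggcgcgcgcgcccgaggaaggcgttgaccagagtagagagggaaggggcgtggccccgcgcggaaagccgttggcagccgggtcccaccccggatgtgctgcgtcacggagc
Each match belongs to 1 of several annotated starts, 1 of 3 for Dnaja1 and 1 of 2 each for Dnaja4 and Dnajb4, and the windows of the other starts hold none. At those starts the match of Dnaja1 begins 124 bases upstream, those of Dnaja4 begin 90 and 52 bases upstream, and that of Dnajb4 begins 14 bases upstream. A match is a run of letters and not a measured binding site. The absence of one in Dnajb1 says only that these letters are not in its window.

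In bone marrow-derived macrophages AP-3-84 gave calls among members in 1 of 6 populations, KO M0. In WT M0 edgeR called 0 of 36 members, with 0.144% of all 11779 genes called, and 5 members had an unadjusted p under 0.05. In WT M1 it called 0 (all genes 0.0170%, 2 members at the unadjusted threshold), and in WT M2 it called 0 (all genes 1.21%, 5 members). In KO M1 it called 0 (all genes 0%, 2 members) and in KO M2 it called 0 (all genes 0.0509%, 6 members). At the unadjusted threshold 1107 of all 11779 genes passed in WT M0, 857 in WT M1 and 1386 in WT M2. In KO M1 206 genes passed, and in KO M2 1454. DESeq2 called 0 members in each of these 5 populations. Leaving out replicate 3 of the WT M2 vehicle gave 1 call, Dnajb1 (188 calls over all genes, in place of 142). Leaving out replicate 1 of the KO M2 vehicle gave 3 (Dnajb14, Dnajc3 and Dnajc9), and dropping the filter gave 1 in WT M0 (Dnajb9) and 2 in KO M2 (Dnajb14 and Dnajc9). Calls over all genes moved as well. Without that KO M2 replicate 562 of 12078 genes were called, in place of 6 of 11779. Without the filter 311 of 22768 were called in WT M0 and 577 in KO M2. These populations have a lower depth and a wider spread than the peritoneal ones (biological coefficient of variation 0.225 against 0.168).

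Dnajb1 was not called in any of the 6 populations. With vehicle and then with the compound it stood at 38.8, 33.0 and 41.1 against 44.0, 37.0 and 42.9 CPM in WT M0. In WT M1 the values were 47.4, 43.2 and 49.6 against 66.6, 43.4 and 47.9 CPM, and in WT M2 they were 36.2, 38.3 and 53.8 against 76.3, 58.7 and 57.8 CPM. Only in WT M2 did all treated libraries lie above all vehicle libraries, with a log2 fold change of 0.59 (SE 0.184, adjusted p = 0.126 by edgeR, 0.0341 to 0.563 across alternatives). In KO M0 Dnajb1 stood at 36.7, 46.2 and 59.8 against 58.1, 56.7 and 47.1 CPM, in KO M1 at 56.3, 51.6 and 56.2 against 47.2, 47.4 and 46.9 CPM, and in KO M2 at 34.5, 42.3 and 31.7 against 49.7, 35.9 and 40.9 CPM. Its log2 fold change was 0.18 (SE 0.183), -0.21 (SE 0.182) and 0.22 (SE 0.186) in that order, and the treated KO M1 libraries all lay below their vehicle libraries without a call (adjusted p = 1 by edgeR).

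Dnaja1 had log2 fold changes of -0.18 (SE 0.197) in WT M0, 0.01 (SE 0.196) in WT M1, 0.36 (SE 0.197) in WT M2, 0.05 (SE 0.196) in KO M1 and 0.10 (SE 0.196) in KO M2, none of them called. Of 37 tested partners 1 was higher in WT M0, 3 in WT M2, 2 in KO M2 and, by edgeR, 0 in WT M1 and KO M1 (4 and 0 at an unadjusted p under 0.05). Of all genes 0.144% were called in either direction in WT M0, 1.21% in WT M2 and 0.0509% in KO M2. In WT M1 and KO M1 these shares were 0.0170% and 0%. At the unadjusted threshold 857 and 206 of all 11779 genes passed in WT M1 and KO M1. Hspa1a, the partner called in WT M0, rose there from 1.12, 1.43 and 2.04 CPM to 31.0, 14.9 and 21 CPM. In WT M1 it stood at 1.19, 3.97 and 2.01 CPM with vehicle and at 14.1, 6.3 and 12.6 CPM with the compound (log2 fold change 2.15, SE 0.550, adjusted p = 0.232 by edgeR). In WT M2 and KO M2 its log2 fold change was 4.56 (SE 0.470, adjusted p = 1.44e-06 by edgeR) and 3.53 (SE 0.504, adjusted p = 0.00116 by edgeR). In WT M0, WT M2 and KO M2 this HSP70 gene was therefore called while no member of the family was.

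Dnajb9, an endoplasmic reticulum co-chaperone of BiP and a target of the unfolded protein response, was chosen after its values were seen. It stood at 20.2, 24.1 and 17.9 CPM with vehicle and at 37.0, 41.2 and 33.1 CPM with the compound in WT M0, and at 27.0, 27.7 and 25.0 against 42.9, 42.9 and 43.1 CPM in WT M2. The groups did not overlap in either population, but neither log2 fold change, 0.84 (SE 0.260, adjusted p = 0.244 by edgeR) and 0.69 (SE 0.259, adjusted p = 0.225 by edgeR), was called. In ascites and thioglycollate macrophages its log2 fold changes were 0.18 and 0.12, with overlapping groups. In WT M1 no tested endoplasmic reticulum member had a log2 fold change above 0.28. Dnajb9 was called in none of the 8 populations. Its values in KO M0, KO M1 and KO M2 are not given here, so those printed do not describe bone marrow-derived macrophages at large.

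**Figure D2:**
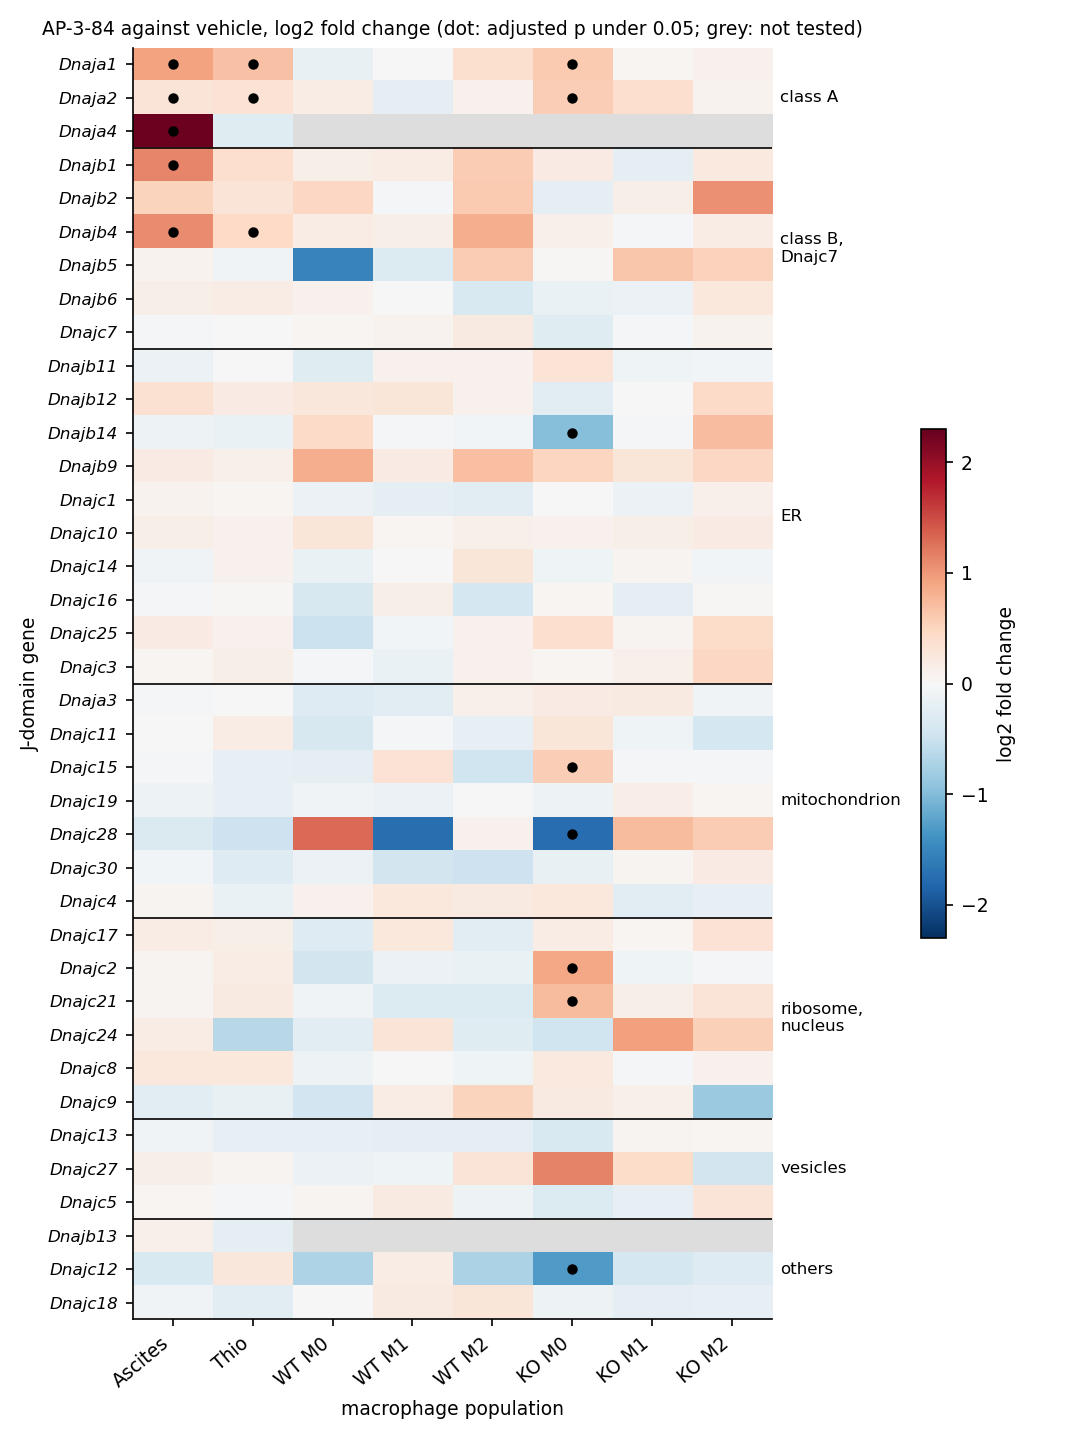
Log2 fold change of AP-3-84 against vehicle for the 38 J-domain genes tested (rows, ordered by the compartment they serve) in 8 macrophage populations (columns). Red is higher and blue lower with the compound, a dot marks an edgeR adjusted p under 0.05 and grey marks genes not tested. The 16 dots lie in ascites (5), thioglycollate (3) and KO M0 (8) macrophages, and the KO M0 dots include members of the ribosome, mitochondrion and endoplasmic reticulum.

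Over all 8 populations 27 of the 38 members tested at least once were called in none, 8 in 1, 1 in 2 and 2 in 3. Dnaja4 and Dnajb13 were tested in the peritoneal populations only. The tally was made for members alone, so it does not show whether they were called more often than other genes. Dnaja1 and Dnaja2 are the pair called in 3, each higher in ascites, thioglycollate and KO M0 macrophages, and Dnajb4 was higher in both peritoneal populations.

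In KO M0 macrophages 5 of 36 members were higher with the compound (13.9%) and 3 were lower (8.33%). Of all genes 12.1% were higher and 8.57% lower, so the family changed about as often as other genes did. Dnajc2, the ribosome-associated co-chaperone also called MPP11, stood at 73.9, 87.4 and 91.1 CPM with vehicle and at 162, 198 and 108 CPM with the compound (log2 fold change 0.89, SE 0.166, adjusted p = 0.000274 by edgeR). Dnajc21, a factor of 60S ribosomal subunit maturation, stood at 32.0, 34.2 and 42.2 CPM and at 63.2, 62.9 and 53.7 CPM (log2 fold change 0.73, SE 0.165, adjusted p = 0.0019 by edgeR). Dnaja1 stood at 101, 85.6 and 65.2 CPM and at 120, 133 and 129 CPM (log2 fold change 0.61, SE 0.198, adjusted p = 0.0274 by edgeR). The treated libraries of all 3 genes lay above their vehicle libraries. Dnaja2 and Dnajc15, an inner mitochondrial membrane co-chaperone of the import motor, each rose by a log2 fold change of 0.57 (SE 0.172 and 0.151, adjusted p = 0.0179 and 0.00703 by edgeR), also without overlap.

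The 3 members that fell in KO M0 were Dnajb14, Dnajc12 and Dnajc28. Dnajb14 (ENSMUSG00000074212, chromosome 3, 137867675 to 137916557, plus strand) stood at 170, 162 and 180 CPM with vehicle and at 90.7, 49.8 and 119 CPM with the compound, a log2 fold change of -0.98 (SE 0.270, adjusted p = 0.00994 by edgeR). The vehicle libraries were tightly spaced, and the treated ones lay below them over a wide range. Dnajc28, a little-studied class C member, stood at 7.86, 13.2 and 8.66 CPM and at 1.77, 1.73 and 5.29 CPM (log2 fold change -1.75, SE 0.605, adjusted p = 0.0365 by edgeR). Dnajc12, a co-chaperone of aromatic amino acid hydroxylases, stood at 4.19, 2.15 and 3.79 CPM and at 1.26, 1.73 and 1.06 CPM (log2 fold change -1.31, SE 0.478, adjusted p = 0.0487 by edgeR).

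Single libraries carry weight in KO M0. The 8 calls became 4 without replicate 1 of the treated group, 3 without replicate 2 of the treated group and 4 without replicate 3 of the vehicle group. Over all genes the calls were 1335, 1074 and 1691 in that order, in place of 2440. Dnajc2 and Dnajc21 kept their calls in all 11 alternatives, and Dnajb14 lost its call without replicate 2 of the treated group (adjusted p 4.72e-05 to 0.109 across alternatives). Of the others Dnajc12 lost its call in 7 of 11, Dnaja1 in 5, Dnajc28 in 4, Dnaja2 in 3 and Dnajc15 in 1. Summed neutrophil markers stood at 269 to 424 CPM in treated and 518 to 644 CPM in vehicle libraries, and summed macrophage markers at 17900 to 38800 and 32300 to 38900 CPM. Their part in the KO M0 results was not tested. Of 37 tested partners 15 were higher and 1, Hscb, a mitochondrial iron-sulphur cluster co-chaperone, was lower. Of all genes 12.1% were higher and 8.57% lower. Hspa8 rose by a log2 fold change of 0.61 (SE 0.121, adjusted p = 0.000564 by edgeR).

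The response of KO M0 was then set against that of WT M0. Of 36 members 5 had a higher response in KO M0 (13.9%) and 2 a lower one (5.56%), where 10.0% and 6.99% of all genes did, again close to the share over all genes. The largest positive difference was that of Dnajc2, 1.31 (SE 0.233, adjusted p = 0.00032 by edgeR). In WT M0 Dnajc2 stood at 164, 131 and 130 CPM with vehicle and at 98.3, 109 and 112 CPM with the compound, so its treated libraries lay below the vehicle ones in WT and above them in KO. Dnajb14 had a difference of -1.42 (SE 0.382, adjusted p = 0.011 by edgeR), with 63.7, 71.2 and 82.8 against 127, 105 and 62.1 CPM in WT M0. Dnajc15 had 0.78 (SE 0.212, adjusted p = 0.0113 by edgeR), Dnajc28 had -3.06 (SE 0.859, adjusted p = 0.0135 by edgeR) and Dnajc21 had 0.82 (SE 0.233, adjusted p = 0.0145 by edgeR). Dnajb11, a co-chaperone of BiP, and Dnaja1 were the other two, with 0.59 and 0.79. Without replicate 1 of the treated WT M0 group 3 of the 7 calls were left, and over all genes 1221 calls in place of 2002. The calls of Dnajc2 and Dnajc28 held in all 17 alternatives, and those of Dnaja1 and Dnajb11 were lost in 11 of 17 each.

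**Figure D3:**
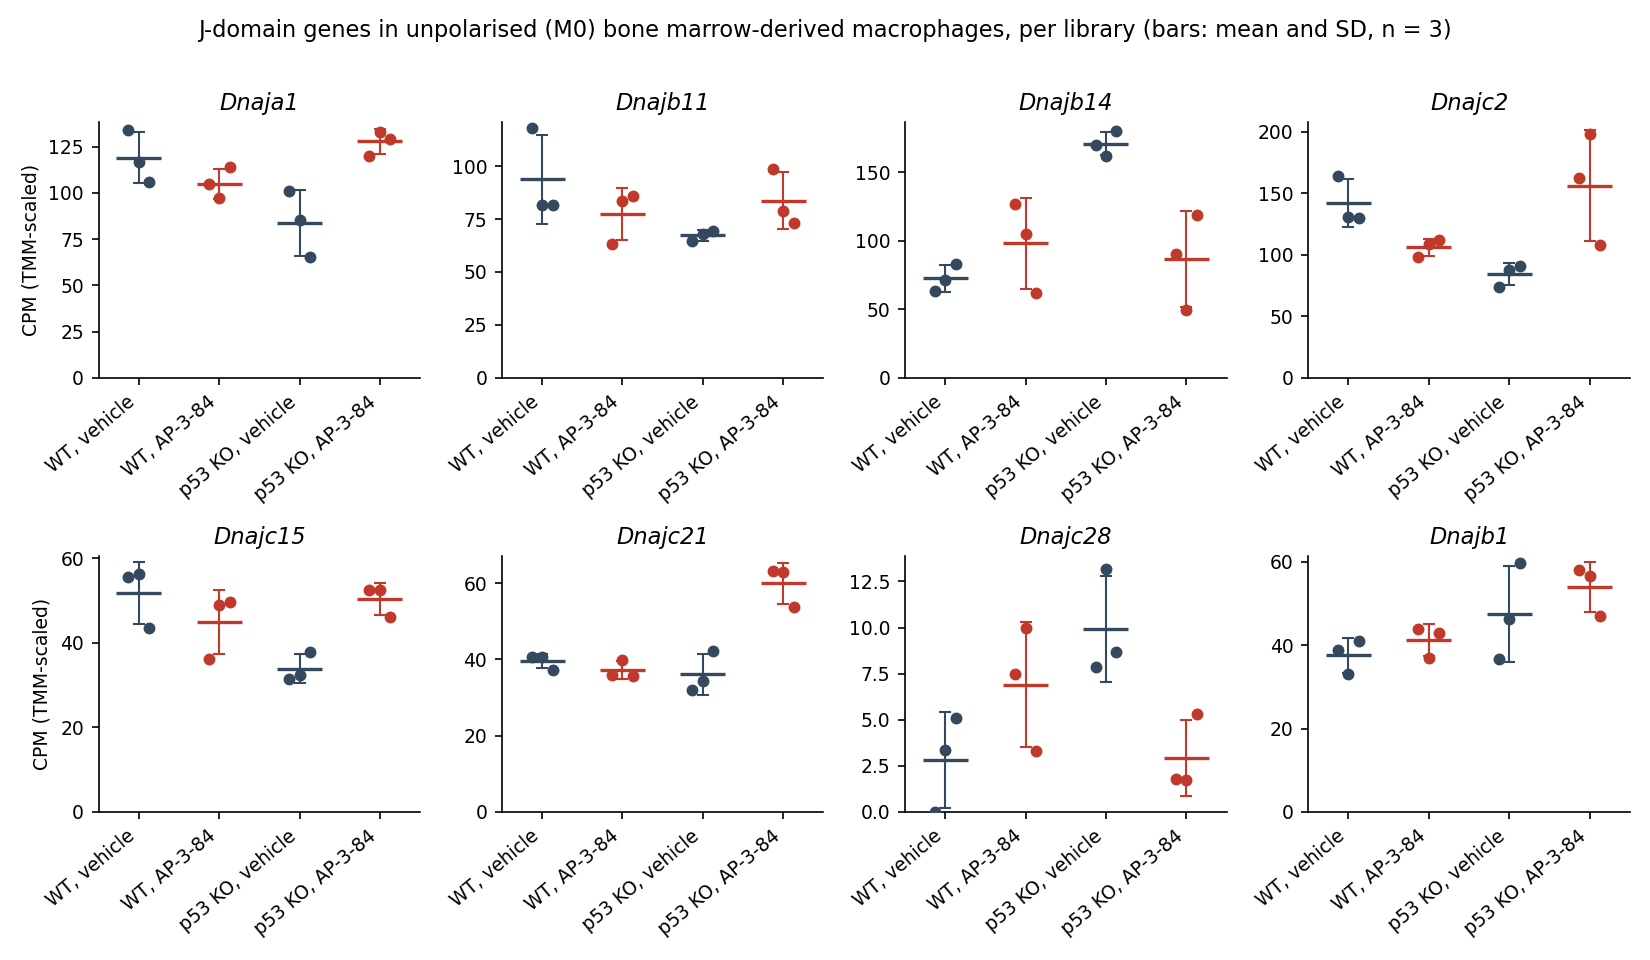
TMM-scaled CPM of 8 J-domain genes in each of the 12 M0 libraries, with WT on the left and KO on the right of each panel, the vehicle in grey and AP-3-84 in red. Points are libraries and bars are the mean and SD of 3 libraries. Dnajc2 treated libraries lie above the vehicle libraries in KO (108 to 198 against 73.9 to 91.1 CPM) and below them in WT, while Dnajb1 overlaps between treated and vehicle libraries in both.

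In WT cells no member had a response called different between polarised and M0 macrophages. In the difference between WT M1 and WT M0 edgeR called 0 of 36 members (all genes 0.0255%, 2 members at an unadjusted p under 0.05, DESeq2 0), and without the filter 1 (Dnajc28). In the difference between WT M2 and WT M0 it called 0 (all genes 0.136%, 3 members, DESeq2 0). At the unadjusted threshold 799 and 1361 of all 11779 genes passed in these differences, in that order. Without the filter 172 of 22768 genes were called in the difference between WT M1 and WT M0. For Dnajb1 these differences were 0.04 (SE 0.261) and 0.45 (SE 0.260), and for Dnaja1 0.19 (SE 0.278) and 0.54 (SE 0.278).

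Without the compound, the populations differed in the makeup of the family. In vehicle libraries 8 of 38 members were higher in ascites than in thioglycollate macrophages (21.1%) and 6 were lower (15.8%), where 20.3% and 13.4% of all genes were, so these counts lie close to those of all genes. The largest rises were those of Dnajc17, a nuclear member with an RNA-binding motif, at 10.4, 12.8 and 14.6 against 7.02, 6.13 and 6.08 CPM (log2 difference 0.98, SE 0.181, adjusted p = 0.000348 by edgeR), of Dnajb1 (0.69, SE 0.136, adjusted p = 0.000769 by edgeR) and of Dnajc15 (0.57, SE 0.0824, adjusted p = 2.87e-05 by edgeR). Dnaja1 was higher by 0.53. Reads of Dnajc17 are uncertain, as 26.1% of its 30-base stretches occur in Gm6257. The largest falls were those of Dnajb13, a member of cilia and sperm tails that overlaps Ucp2 on the other strand, at 0.599, 0.443 and 0.271 against 1.72, 1.15 and 2.44 CPM (-2.01, SE 0.619, adjusted p = 0.0175 by edgeR), of Dnaja4 (-1.31, SE 0.408, adjusted p = 0.0189 by edgeR) and of Dnajc28 (-1.04, SE 0.223, adjusted p = 0.00134 by edgeR). Dnajb13 had only 3 to 45 counts per peritoneal library. It can owe its place among the tested genes to the groups where it is higher, so its fold is uncertain. Its call was lost in 3 of 11 alternatives. Dnajb14 stood at 333, 308 and 296 against 486, 487 and 469 CPM (-0.62, SE 0.0708, adjusted p = 1.68e-06 by edgeR). In all 14 called members the ascites and thioglycollate vehicle libraries did not overlap. These members were picked by the test itself, and the share over all genes was not counted. Of the members that rose with AP-3-84 in ascites cells, Dnajb1 and Dnaja1 were thus higher there than in thioglycollate cells without it, and Dnaja4 lower. Summed epithelial and tumour markers stood at 156 to 187 CPM in ascites and 1.46 to 3.7 CPM in thioglycollate vehicle libraries. Neutrophil markers stood at 99.9 to 113 and 145 to 151 CPM, and macrophage markers at 28700 to 30500 and 34300 to 34700 CPM. Their part in these differences was not tested.

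In WT macrophages M1 polarisation left 1 of 36 members higher (2.78%, all genes 8.01%) and 3 lower (8.33%, all genes 7.49%). Dnajc1, a membrane co-chaperone of BiP, rose from 90.4, 76.0 and 76.7 CPM in M0 to 160, 163 and 146 CPM in M1 (log2 difference 0.95, SE 0.196, adjusted p = 0.00102 by edgeR). Dnajb14 fell from 63.7, 71.2 and 82.8 CPM to 32.5, 37.6 and 32.0 CPM (-1.09, SE 0.281, adjusted p = 0.00772 by edgeR), Dnajc8, a spliceosome-associated member, fell by 0.56 and Dnajc10, a disulphide reductase of the endoplasmic reticulum, fell by 0.44 on the log2 scale. M0 and M1 libraries did not overlap for any of the 4. These 4 were picked by the test itself, and the share over all genes was not counted. Dnajc10 lost its call in 5 of 11 alternatives. Summed macrophage markers stood at 43600 to 46500 CPM in WT M1 and 30200 to 38400 CPM in WT M0 vehicle libraries, and their part was not tested. With total-count scaling, which shifts the median of all genes by -0.30, 9 members were called (1 higher and 8 lower), and the calls over all genes split into 439 higher and 2164 lower in place of 943 and 882.

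M2 polarisation of WT cells left 2 of 36 members higher (5.56%, all genes 12.7%) and 4 lower (11.1%, all genes 10.7%). The rises were Dnajc4, a class C member (log2 difference 0.76, SE 0.278, adjusted p = 0.0433 by edgeR), and Dnajb6 (0.39, SE 0.130, adjusted p = 0.0274 by edgeR). The largest falls were Dnajb4, from 18.4, 18.9 and 17.9 CPM to 15.0, 7.24 and 6.65 CPM (-0.92, SE 0.337, adjusted p = 0.0447 by edgeR), Dnajc8 (-0.58, SE 0.138, adjusted p = 0.00244 by edgeR) and Dnajc13, an endosomal member (-0.57, SE 0.208, adjusted p = 0.0421 by edgeR). Only Dnajc8 kept its call in all 11 alternatives. Counts fell to 2 without replicate 1 or replicate 2 of the WT M0 vehicle, and to 3 without replicate 3 of it or without replicate 2 or 3 of the WT M2 vehicle. Without the filter on low counts 3 were called. Over all genes the leave-one-out fits named had 1968 to 2249 calls, in place of 2761, and the fit without the filter 2769 of 22768. With total-count scaling (median of all genes -0.20, with TMM 0.01) the calls were 0 higher and 8 lower. Those over all genes were 940 higher and 2120 lower in place of 1497 and 1264. Summed neutrophil markers spanned 417 to 3740 CPM over the 3 WT M2 vehicle libraries and 242 to 448 CPM in WT M0, and their part was not tested.

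The p53 KO vehicle libraries of M0 differed from the WT ones in 3906 of 11779 genes, counting both directions. Members were called no more often than other genes, with 10 of 36. In KO M0 2 of 36 members were higher than in WT M0 (5.56%, all genes 16.4%) and 8 were lower (22.2%, all genes 16.8%). The share of members was thus below that of all genes among the higher and above it among the lower. In all 10 the libraries did not overlap. These members were picked by the test itself, and the share over all genes was not counted. Dnajb14 was higher, at 170, 162 and 180 against 63.7, 71.2 and 82.8 CPM (log2 difference 1.23, SE 0.272, adjusted p = 0.000893 by edgeR), and so was Dnajc28 (1.82, SE 0.605, adjusted p = 0.0199 by edgeR), with 1 WT library at 0 counts. The largest falls were those of Dnajc9, a histone co-chaperone, at 19.7, 19.4 and 17.6 against 66.4, 37.3 and 35.8 CPM (-1.30, SE 0.301, adjusted p = 0.00136 by edgeR), of Dnajc10, at 49.5, 47.1 and 49.5 against 94.2, 99.4 and 120 CPM (-1.10, SE 0.146, adjusted p = 1.54e-06 by edgeR), and of Dnajc2 (-0.75, SE 0.165, adjusted p = 0.000813 by edgeR). Dnaja1 was lower by a log2 difference of -0.51, a call lost in 7 of 11 alternatives. Leaving out replicate 1 of the WT M0 vehicle or replicate 2 of the KO M0 vehicle left 6 calls. Over all genes these fits left 2816 and 3231 calls, in place of 3906. Summed neutrophil markers stood at 518 to 644 CPM in KO M0 and 242 to 448 CPM in WT M0 vehicle libraries, and their part was not tested. Trp53 itself was lower in KO M0 (-1.34, SE 0.402, adjusted p = 0.0102 by edgeR), but was not called in M1 (-0.22, adjusted p = 0.765 by edgeR) or M2 (-0.63, adjusted p = 0.407 by edgeR).

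In M1 the KO vehicle libraries had 3 of 36 members higher (8.33%, all genes 5.93%) and 2 lower (5.56%, all genes 5.71%) than WT. These were Dnajc2 (0.61), Dnajb6 (0.50) and Dnajc21 (0.50) among the higher, and Dnajc30, a mitochondrial member (-0.78), and Dnajc3, a luminal co-chaperone of BiP (-0.47), among the lower. Leaving out replicate 1 of the KO M1 vehicle left 0 calls. Without replicate 2 or 3 of the WT M1 vehicle or replicate 3 of the KO M1 vehicle 1 was left, and without replicate 1 of the WT M1 vehicle 2 were. Over all genes these leave-one-out fits had 580 to 786 calls, in place of 1372. With total-count scaling, which shifts the median of all genes by 0.27, the calls were 6 higher and 0 lower, and those over all genes 1863 higher and 230 lower in place of 699 and 673, so the split between higher and lower members depends on the scaling. Summed macrophage markers stood at 16100 to 25100 CPM in KO M1 and 43600 to 46500 CPM in WT M1 vehicle libraries, and neutrophil markers at 959 to 2340 and 435 to 565 CPM, and their part was not tested. In M2 edgeR called 0 of 36 members between KO and WT (all genes 3.56%). At an unadjusted p under 0.05 it had 6 members, and 2276 of all 11779 genes. DESeq2 called 1 member, Dnajc5, as lower, and 699 of all genes in either direction. Leaving out replicate 2 of the WT M2 vehicle or replicate 1 of the KO M2 vehicle gave 1 call. Over all genes these fits gave 423 and 916 calls, in place of 419. Total-count scaling gave 3 calls, all higher, with 490 higher and 150 lower over all genes in place of 143 and 276. The median of all genes was 0.19 with that scaling and 0.01 with TMM.

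Within the KO cells the family changed with both polarisations, about as often as all genes did. Of 36 members 10 were higher in M1 than in M0 (27.8%, all genes 22.8%) and 7 lower (19.4%, all genes 21.8%). In M2 9 were higher (25%, all genes 20.1%) and 6 lower (16.7%, all genes 18.0%). Dnajc1 had the largest rise in M1, from 74.2, 82.8 and 88.7 CPM to 292, 155 and 225 CPM (log2 difference 1.45, SE 0.198, adjusted p = 7.93e-07 by edgeR). Dnajc9 (1.42, SE 0.301, adjusted p = 0.000323 by edgeR) and Dnajc2 (1.28, SE 0.166, adjusted p = 3.75e-07 by edgeR) came next. In M2 the largest rises were Dnajc9, from 19.7, 19.4 and 17.6 CPM to 31.8, 52.9 and 63.2 CPM (1.39, SE 0.301, adjusted p = 0.000536 by edgeR), Dnajc10 (0.99, SE 0.146, adjusted p = 3.49e-06 by edgeR) and Dnajc15 (0.95, SE 0.151, adjusted p = 9.78e-06 by edgeR).

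Dnajb14 fell in KO cells with both polarisations, from 170, 162 and 180 CPM in M0 to 36, 33.7 and 42.8 CPM in M1 (log2 difference -2.18, SE 0.283, adjusted p = 5e-07 by edgeR) and to 81.5, 51.1 and 35.0 CPM in M2 (-1.61, SE 0.276, adjusted p = 3.31e-05 by edgeR). The other named falls in M1 were Dnajc28 (-2.55, SE 0.643, adjusted p = 0.00176 by edgeR), the largest of them, and Dnajc30 (-0.86, SE 0.237, adjusted p = 0.00377 by edgeR). In M2 they were Dnajb2, a class B member best known from neurons (-1.27, SE 0.324, adjusted p = 0.00244 by edgeR), and Dnajb4 (-0.84, SE 0.330, adjusted p = 0.0428 by edgeR). Without the filter on low counts the M1 count was 10, and over all genes 4943 of 22768 in place of 5244 of 11779. Summed macrophage markers stood at 16100 to 25100 CPM in KO M1, 5890 to 18400 CPM in KO M2 and 32300 to 38900 CPM in KO M0 vehicle libraries, and their part in these differences was not tested. The comparisons of KO M0 with its treated cells, with WT M0, with KO M1 and with KO M2 all use the same 3 KO M0 vehicle libraries. Side by side, the log2 differences of Dnajb14 from those libraries were -0.98 with the compound, -2.18 in M1 and -1.61 in M2, and those of Dnajc2 were 0.89, 1.28 and 0.64.

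**Figure D4:**
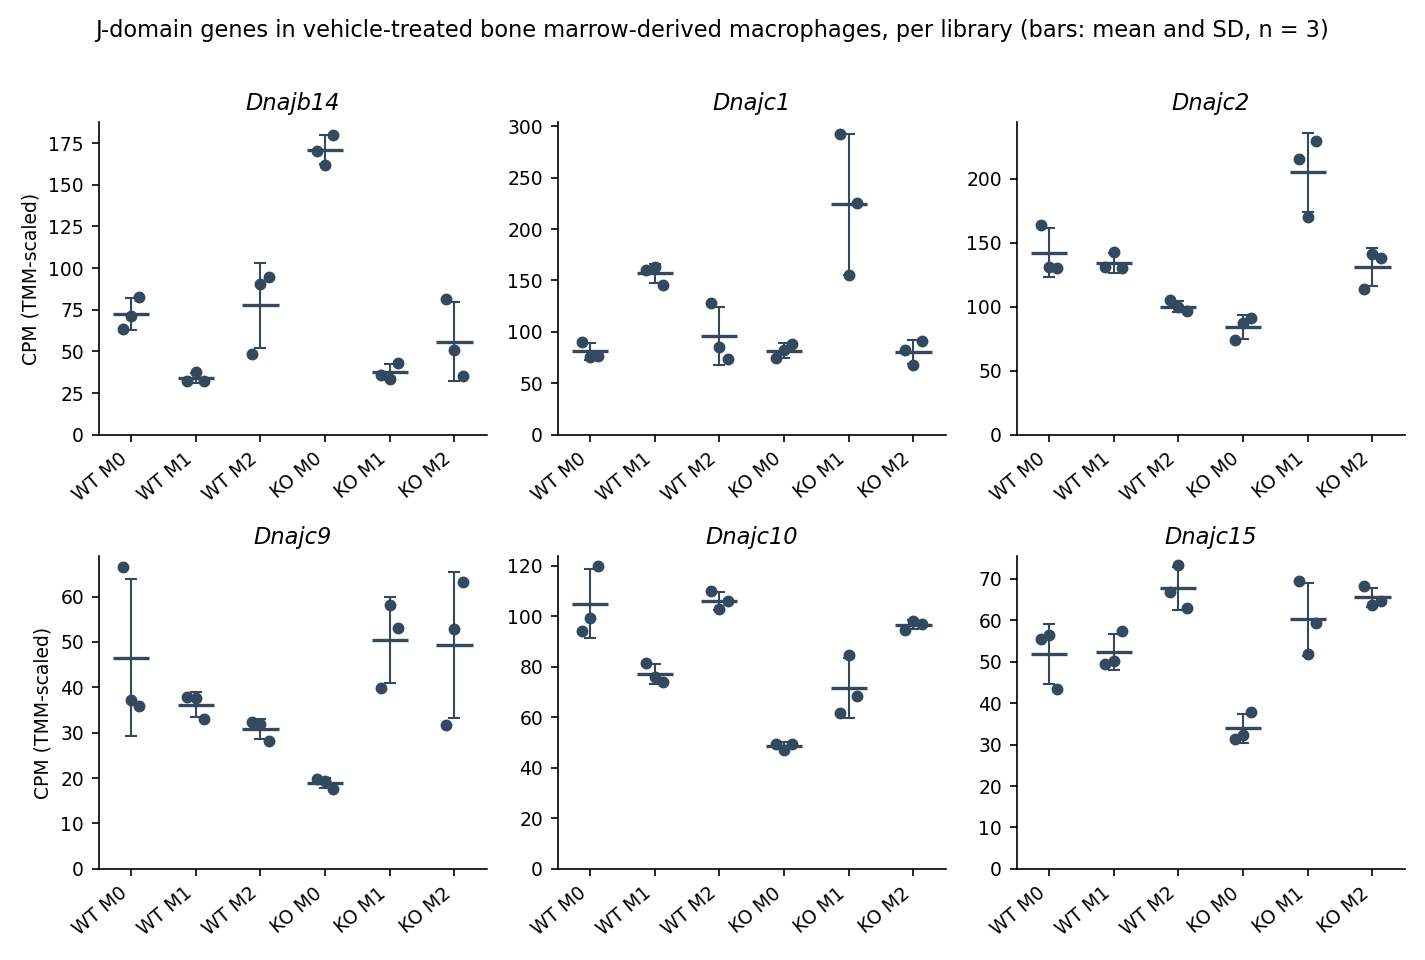
TMM-scaled CPM of 6 J-domain genes in the 18 vehicle libraries of bone marrow-derived macrophages, by genotype (WT, KO) and polarisation (M0, M1, M2). Points are libraries and bars are the mean and SD of 3 libraries. KO M0 libraries have the highest Dnajb14 (162 to 180 CPM) and the lowest Dnajc9 and Dnajc10 of the 6 groups, and Dnajc1 is highest in both M1 groups.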

How the data were processed

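The authors deposited a table of raw counts per gene and library, whole numbers keyed by Ensembl gene ID. Per the labels' protocols, 100 ng of RNA went into QuantSeq FWD libraries read as single 75-base reads. The submitters' processing notes name RSEM, Bowtie2 and DESeq2 without roles. A genome build and a strand setting were not given in the sources used here. Symbols were found for 51596 of 51789 IDs, and coordinates come from GENCODE M21 (GRCm38). Groups follow titles and descriptions in the labels.

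Counts were tested with edgeR 4.0.16 in R 4.3.3 (filterByExpr by group, TMM, robust quasi-likelihood fit, 1 mean per group), apart for 12 peritoneal (16955 genes) and 36 bone marrow-derived libraries (11779 genes), and the procedure was tested on simulated data. The 20 comparisons were 8 of compound against vehicle, 4 differences of responses and 8 between vehicle groups. Alternatives were median-ratio size factors, total-count scaling, no filter, DESeq2 1.42.0, a replicate block and each library left out.

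The family rule, roles, partner list and tests were chosen with earlier results of these data known. Named with values were Dnajb1, Dnaja1, members called in at least 2 populations, in each comparison of 2 groups up to 3 largest rises and 3 largest falls among called members, in each difference of responses up to 5 called members by p, the most abundant members, and members at 0 counts. Further members are named where their number is small or where the text says so. Sequences are RefSeq's (GRCm38.p6). Replicate libraries differed beyond counting noise (mean chi-square per gene at least 2.51), and no columns were identical. Error bars and p-values cover counting error and the spread between libraries. A few items of the marker and partner lists are not reported here.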

Additional observations from a re-analysis of the deposited data

Results flagged for a closer look

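In 7 members the response to AP-3-84 differed between KO M0 and WT M0 macrophages by the test of the difference itself (edgeR adjusted p under 0.05, 3 libraries per group). The difference, KO response minus WT response on the log2 scale, was 1.31 for Dnajc2, 0.78 for Dnajc15, 0.82 for Dnajc21, 0.59 for Dnajb11 and 0.79 for Dnaja1, whose responses were higher in KO cells. It was -1.42 for Dnajb14 and -3.06 for Dnajc28, whose responses were lower there. These values use the same vehicle libraries as the comparison of KO M0 with WT M0. They are 13.9% of the members tested in the higher and 5.56% in the lower direction, close to the 10.0% and 6.99% of all genes. Dnaja1 and Dnajb11 each lost their call in 11 of 17 alternatives.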

How the results depend on the processing

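Counts of called members were alike within 1.5 times in 87 of 100 alternatives other than leaving out a library, and in 123 of 144 leave-one-out fits. Fits that called no member in either setting count as alike here. Comparisons without a called member therefore raise both numbers, which are no measure of how stable the calls are. Without the filter on low counts the counts were 5 for thioglycollate, 1 for WT M0, 2 for KO M2, 4 for the ascites minus thioglycollate response, 4 for the KO M0 minus WT M0 response, 1 for the WT M1 minus WT M0 response, and, between vehicle groups, 3 for WT M2 minus WT M0, 10 for KO M1 minus KO M0 and 1 for KO M1 minus WT M1. With total-count scaling they were 9 for WT M1 minus WT M0 and 3 for KO M2 minus WT M2, and with DESeq2 1 for the ascites minus thioglycollate response and 1 for KO M2 minus WT M2. Calls over all genes moved in these settings too, for example in KO M2 without the filter to 577 of 22768 from 6 of 11779. Causes were not tested.

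Leaving out single libraries moved the count between 1 and 3 for thioglycollate, 0 and 1 for WT M2, 3 and 8 for KO M0, 0 and 3 for KO M2 and 3 and 9 for the KO M0 minus WT M0 response. Between vehicle groups it moved between 2 and 5 for WT M2 minus WT M0, 6 and 10 for KO M0 minus WT M0, 0 and 6 for KO M1 minus WT M1 and 0 and 1 for KO M2 minus WT M2. Uncalled log2 fold changes changed sign for Dnaja1 in KO M1 (-0.083 to 0.22), KO M2 (-0.045 to 0.24) and WT M1 (-0.10 to 0.13), and for Dnajb1 in WT M1 (-0.052 to 0.28). Over all genes, total-count scaling split the ascites calls into 239 higher and 53 lower in place of 286 and 17. Those in WT M2 were split into 39 and 79 in place of 27 and 115. Those between ascites and thioglycollate vehicle were split into 4156 and 1758 in place of 3444 and 2272. The medians of all genes were -0.05, 0.11 and 0.14 with that scaling, and -0.005, 0.001 and 0.046 with TMM.

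With the replicate block the counts were 4 for ascites, 2 for thioglycollate, 8 for KO M0 and 5 for the KO M0 minus WT M0 response. No clear pairing of same-numbered libraries was seen: 6 of 24 pairs had deviations correlated over 0.1 (from -0.53 to 0.52), and 7 of 24 correlated best with their own number. With 3 libraries per group such correlations cannot exclude a shared animal or culture. The bone marrow-derived libraries had fewer counts and a wider spread than the peritoneal ones.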
